A study of Mus musculus with 9 samples.

Results

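p53 is a transcription factor, encoded in the mouse by Trp53, that switches on genes for cell cycle arrest, cell death, DNA repair and metabolic restraint. Its protein level is held down by Mdm2, a ubiquitin ligase that is itself a p53 target, and its activity by the related protein Mdm4. In mouse embryonic stem (ES) cells p53 is known for abundant RNA and protein and for promoting differentiation after DNA damage. Of 31 genes listed for p53, its 2 Mdm regulators and its targets, 29 were found by their name in the authors' table of 13499 genes, and all 29 passed the filter on low values. Fas, the other listed death receptor, was not analysed here. Tigar was not among the names, but its Ensembl identifier was in the table under the name 9630033F20Rik, so it is reported beside the members and not counted with them.

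RNA was sequenced from C57BL/6 mouse ES cells that had been separated by cytometry into High, Medium and Low Myc populations, with 3 libraries each, described in the labels as biological replicates. All cells grew on gelatine in 2xLIF SR-ES medium, and no other treatment is given. The sort used a GFP-Myc fusion or EYFP, and the labels do not say which reporter marked which sample, nor whether the cells were of 1 clone. Only RNA was measured, so p53 protein, its stability and its activity are not seen here. Values are the authors' normalised read counts, on a scale where each library totals about the same, and are called normalised reads below. Each library held 11114936 to 16755566 reads, so that 1 read was worth 0.0606 to 0.0899 normalised reads. Myc RNA followed the sort, with 106 ± 5.71 in High, 67.1 ± 2.54 in Medium and 26 ± 1.75 in Low (SD, n = 3 each), which checks the labels. All 10 ES cell markers examined were detected, with Pou5f1 at means of 1515, 1291 and 1134 normalised reads in High, Medium and Low. Of these 10 markers 4 (Tdgf1, Esrrb, Zfp42 and Lin28a) were higher in High than in Low, with log2 fold changes of 0.70, 0.54, 0.25 and 0.24. None was called lower, and over all genes 13.8% were higher and 14.6% lower. The log2 fold change was negative for 3 of the 10. Among these, Nanog, picked out after its values were seen, had 232 to 265 in High libraries and 268 to 300 in Low. Its log2 fold change was -0.22 (adjusted p from limma 0.132). The part of the ES cell markers in the members' differences was not tested.

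The sequence that p53 binds is made of paired half-sites of 10 bases each, which may be next to each other or up to 13 bases apart. RefSeq promoter windows on GRCm38.p6, running from 250 bases before to 50 bases after a gene's start, were on hand for 24 of the 31 listed genes, in 31 windows because some genes have several starts. The p53 half-site consensus, which reads the same on both strands, was found in 10 of the 31 windows (32.3%) and 9 of the 24 genes, against 8.36% of 32851 windows of all genes. A pair of half-sites at most 13 bases apart was found in 1 window, that of Cdkn1a, against 0.0731% of all windows. CACGTG, the E-box bound by Myc and by other basic helix-loop-helix factors, was in 5 of the 31 windows (16.1%), against 7.15% of all windows. TATAAA was in 2 windows (6.45%, against 13.6% of all) and CCAAT in 15 (48.4%, against 37.4%), both searched on both strands. The windows of Aen overlap and hold the same half-site. Since the genes were listed as p53 targets, these shares describe the list and say nothing of which protein bound in these cells.

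Windows are printed for the 6 genes with the largest changes among those that had a p53 half-site or an E-box and passed the test between High and Low, described further on. Capitals mark p53 half-sites, except in Eda2r, where they mark CACGTG. The Cdkn1a window is chr17:29090729-29091028 on the plus strand, and its half-sites GGACTAGCTT and GAACATGTCT lie 73 to 64 and 51 to 42 bases before the start. Only exact matches to the consensus are marked. The bases directly after GAACATGTCT, tgacatgttc, depart from the consensus in the first base alone and were not counted. Which of these stretches p53 binds was not tested. The Ccng1 window is chr11:40755237-40755536, that of Eda2r chrX:97377160-97377459 and that of Mdm2 chr10:117710709-117711008, all on the minus strand. The Sesn1 window is chr10:41887189-41887488 on the plus strand, and that of Polk chr13:96519138-96519437 on the minus strand; both genes also have windows at other starts that hold no half-site.
Cdkn1a: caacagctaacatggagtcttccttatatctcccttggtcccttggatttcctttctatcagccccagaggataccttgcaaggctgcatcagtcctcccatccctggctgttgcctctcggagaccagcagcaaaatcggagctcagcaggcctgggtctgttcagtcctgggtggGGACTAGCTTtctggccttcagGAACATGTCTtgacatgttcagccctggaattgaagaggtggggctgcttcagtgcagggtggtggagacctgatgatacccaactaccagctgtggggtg
Ccng1: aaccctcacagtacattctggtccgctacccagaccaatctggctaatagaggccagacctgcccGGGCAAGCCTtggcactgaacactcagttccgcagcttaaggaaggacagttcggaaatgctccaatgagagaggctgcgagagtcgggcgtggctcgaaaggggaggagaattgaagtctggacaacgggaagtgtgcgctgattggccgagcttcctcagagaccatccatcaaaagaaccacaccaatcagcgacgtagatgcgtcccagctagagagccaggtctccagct
Eda2r: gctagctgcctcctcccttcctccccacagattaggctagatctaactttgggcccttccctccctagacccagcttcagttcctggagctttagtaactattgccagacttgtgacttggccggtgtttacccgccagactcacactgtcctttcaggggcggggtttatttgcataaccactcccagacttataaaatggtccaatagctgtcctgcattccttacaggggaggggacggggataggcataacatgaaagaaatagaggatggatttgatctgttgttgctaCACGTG
Mdm2: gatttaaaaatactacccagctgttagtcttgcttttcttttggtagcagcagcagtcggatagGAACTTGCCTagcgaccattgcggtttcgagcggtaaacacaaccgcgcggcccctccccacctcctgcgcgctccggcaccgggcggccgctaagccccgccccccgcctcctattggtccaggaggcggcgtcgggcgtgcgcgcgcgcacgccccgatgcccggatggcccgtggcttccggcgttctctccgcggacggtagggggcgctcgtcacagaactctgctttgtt
Sesn1: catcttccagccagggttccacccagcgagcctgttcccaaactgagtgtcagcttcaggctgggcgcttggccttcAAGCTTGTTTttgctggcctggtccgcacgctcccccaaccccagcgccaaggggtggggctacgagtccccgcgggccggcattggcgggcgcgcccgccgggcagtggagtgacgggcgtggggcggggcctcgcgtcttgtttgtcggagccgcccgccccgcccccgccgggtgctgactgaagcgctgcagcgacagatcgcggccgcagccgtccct
Polk: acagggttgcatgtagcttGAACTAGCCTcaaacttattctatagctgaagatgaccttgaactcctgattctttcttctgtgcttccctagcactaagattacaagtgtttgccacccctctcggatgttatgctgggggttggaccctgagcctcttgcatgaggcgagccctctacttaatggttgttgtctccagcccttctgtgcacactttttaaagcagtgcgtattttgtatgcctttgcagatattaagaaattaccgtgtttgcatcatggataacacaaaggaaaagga

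The half-sites of Ccng1 (GGGCAAGCCT) and Mdm2 (GAACTTGCCT) lie 185 to 176 and 186 to 177 bases before the start. Half-sites were also present in the windows of Trp53 itself (GGACTTGCCC, with CACGTG 11 to 16 bases after the start), Ei24 (GGGCATGCCC), Aen (GGGCTTGTCC) and Rps27l (GGGCTTGCTT and AGACTTGTCC). Genes with a half-site included some that were lower in High (Cdkn1a, Ccng1, Mdm2 and Polk), some that were higher (Sesn1 and Ei24) and some that did not pass (Trp53, Aen and Rps27l).

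**Figure D1:**
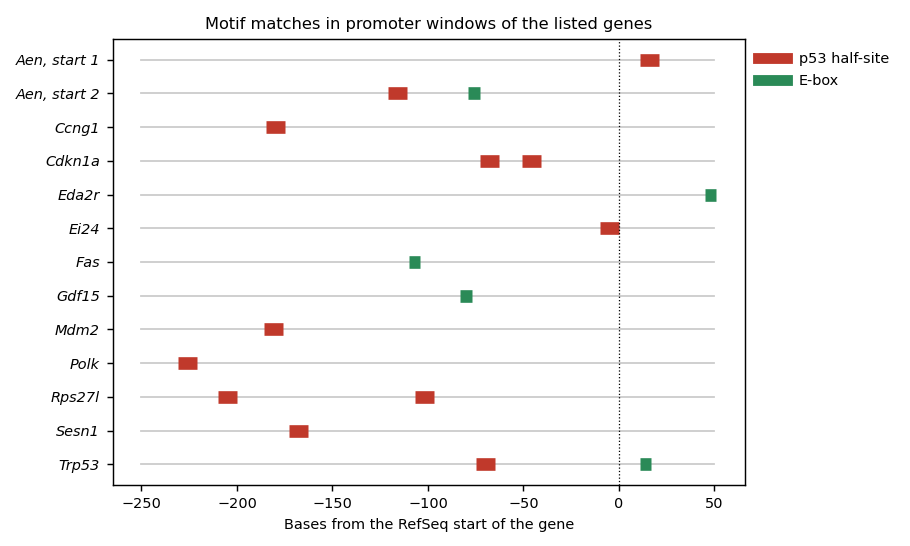
Positions of p53 half-sites (red) and of CACGTG (green) in the promoter windows of the listed genes that hold either; the horizontal axis gives bases from the RefSeq start, and each grey line is a window of 250 bases before to 50 after it. Cdkn1a has paired half-sites 73 to 42 bases before its start, and Aen appears with both of its starts.

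The first comparison sets High against Low Myc cells for p53 and its targets. Most targets were lower in High Myc cells, although RNA for p53 itself did not pass the test. Perp, Phlda3, Btg2, Plk2, Trp53inp1, Dcxr, Cdkn1a, Ccng1 and Eda2r were 2 times lower or more in High than in Low, while Sesn1 and Ei24 were higher. Of the 29 members, 16 (55.2%) were lower in High and 2 (6.9%) higher, and 11 did not pass (limma, adjusted p under 0.05). Over all 13499 genes, 14.6% were lower in High and 13.8% higher. The members' median log2 fold change was -0.50, against -0.00025 over all genes. In 18 of the 29 members (62.1%) all 3 High libraries lay below all 3 Low libraries, as did 21.4% of all genes. In bulk RNA, fewer cells that make a transcript and less of it per cell cannot be told apart.

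**Figure D2:**
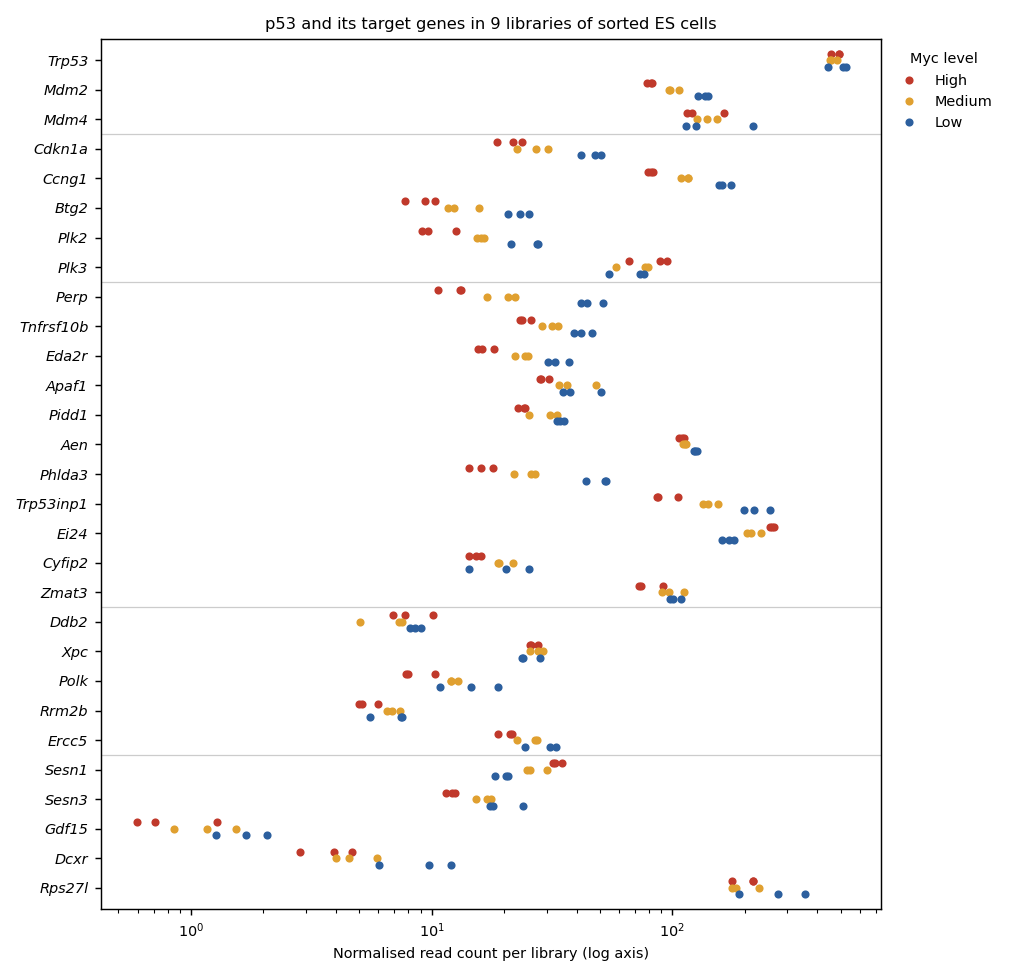
Normalised read count of each member (log axis) in the 3 High (red), 3 Medium (orange) and 3 Low (blue) libraries, with genes grouped by role from the p53 regulators at the top to stress and metabolism genes at the bottom. Perp and Phlda3 fall into separate ranges by population, whereas the points of Trp53 and Xpc lie on top of each other.

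Trp53 RNA was abundant at every Myc level. It had 457, 493 and 493 normalised reads in High, 457, 482 and 451 in Medium and 443, 525 and 510 in Low, and the populations overlapped. High over Low gave a log2 fold change of -0.03, with a 95% interval of -0.22 to 0.16 (adjusted p = 0.817). Per kilobase of its longest annotated transcript Trp53 had 146 normalised reads on average over the 9 libraries, a level exceeded among the members by Rps27l alone, with 390.1.

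Mdm2, which marks p53 for degradation, was lower in High than in Low, with Medium between them. It had 82.2, 78.6 and 81.3 normalised reads in High, 98, 106 and 96.8 in Medium and 136, 128 and 141 in Low. No library of any population overlapped with another population. The log2 fold change of High over Low was -0.73 ± 0.07 (SE, adjusted p = 0.000112), which is 1.67 times lower. Mdm4, which binds p53 and blocks its activation domain, had 163, 115 and 120 in High, 139, 127 and 153 in Medium and 216, 114 and 125 in Low. Its populations overlapped, and 1 Low library stood far above the other two. On the log2 scale High over Low was -0.15, with a 95% interval of -0.65 to 0.35 (adjusted p = 0.659), and it turned to 0.13 without Low replicate 1. With the trend on transcript length, described further on, removed from each library, Mdm4 had a log2 fold change of -0.30 (adjusted p = 0.0971), and with a replicate block as well it passed as lower (adjusted p = 0.0461).

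Of the 5 cell cycle and growth genes, 4 fell and Plk3 did not pass. Cdkn1a encodes p21, the inhibitor of cyclin-dependent kinases through which p53 arrests cells in G1. It had 18.8, 21.8 and 23.8 normalised reads in High, 22.6, 30.4 and 27.2 in Medium and 41.8, 47.9 and 50.7 in Low. High and Medium overlapped, and both lay below every Low library. Low exceeded High 2.18-fold (log2 fold change of High over Low -1.09 ± 0.13, adjusted p = 0.000346). In the annotation Cdkn1a spans chr17:29090976-29100727 (GRCm38), and 7.68% of its exon bases are shared with another annotated gene on the other strand.

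Ccng1, cyclin G1, which recruits a phosphatase to Mdm2, had 83.2, 79.5 and 81.5 normalised reads in High, 116, 116 and 109 in Medium and 174, 157 and 161 in Low. The 3 populations did not overlap, and libraries of 1 population lay close together. Low exceeded High 2.01-fold (adjusted p = 1.87e-05). Btg2, an antiproliferative partner of the CCR4-NOT deadenylase, had 10.4, 7.73 and 9.41 in High, 15.8, 11.7 and 12.4 in Medium and 23.2, 25.4 and 20.7 in Low. Its populations were likewise separate, with a log2 fold change of -1.25 ± 0.15 (adjusted p = 0.000264). Btg2 is also known as an immediate early gene.

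Plk2 and Plk3 encode stress-responsive polo-like kinases. Plk2 had 9.11, 12.6 and 9.65 normalised reads in High, 16.1, 15.5 and 16.5 in Medium and 21.4, 27.7 and 27.4 in Low. The populations were separate, and the log2 fold change of High over Low was -1.21 ± 0.14 (adjusted p = 0.00026). Plk3 had 66.2, 88.6 and 95.1 in High, 58.4, 79.5 and 77.2 in Medium and 54.5, 73.5 and 76 in Low. Its populations overlapped, and replicate 1 was the lowest library of each. High over Low gave 0.29 on the log2 scale (95% interval -0.11 to 0.69, adjusted p = 0.256). With a replicate block, which compares libraries of the same number, Plk3 passed as higher (adjusted p = 0.00747).

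Of the 11 measured members in cell death and survival, 7 fell, Ei24 rose and 3 did not pass. Perp encodes a tetraspan membrane protein of desmosomes that takes part in p53-dependent death, and it had the largest fold change of the 29. It had 10.6, 13.2 and 13.1 normalised reads in High, 22.3, 20.8 and 16.9 in Medium and 41.7, 51.3 and 44.1 in Low. The populations were separate, and Low exceeded High 3.71-fold (log2 fold change of High over Low -1.81 ± 0.13, adjusted p = 2.06e-05). Phlda3, whose product competes with AKT for membrane lipids, had 14.3, 18 and 16.1 in High, 26.7, 25.9 and 22 in Medium and 43.6, 53 and 52.3 in Low. It was 3.08-fold higher in Low than in High, again with no overlap (log2 fold change -1.56 ± 0.12, adjusted p = 2.83e-05).

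Trp53inp1, a stress-induced nuclear protein that helps p53 and autophagy, had 105, 86.2 and 87.5 normalised reads in High, 154, 134 and 141 in Medium and 254, 198 and 217 in Low. Its populations did not overlap, and replicate 1 was the highest library of each. The log2 fold change of High over Low was -1.25 ± 0.12 (adjusted p = 7.49e-05). Perp lies at chr10:18845020-18857073, Phlda3 at chr1:135766119-135769136 and Trp53inp1 at chr4:11156431-11174379 on GRCm38.

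Among receptors of the tumour necrosis factor family, the TRAIL receptor Tnfrsf10b had 25.9, 23.6 and 23.2 normalised reads in High, 33.3, 28.8 and 31.7 in Medium and 46.2, 41.6 and 38.9 in Low. Eda2r, the receptor of ectodysplasin A2, had 18.1, 16.2 and 15.6 in High, 24.5, 22.1 and 25.2 in Medium and 37.3, 30.4 and 32.6 in Low. For both receptors the 3 populations were separate and in the order of Myc level. Their log2 fold changes of High over Low were -0.77 ± 0.10 (adjusted p = 0.000443) and -0.96 ± 0.11 (adjusted p = 0.00019).

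Of the 2 caspase activators, Pidd1 passed and Apaf1 did not. Pidd1, the scaffold of the complex that activates caspase-2, had 24.3, 22.8 and 24.1 normalised reads in High, 25.3, 33.1 and 31 in Medium and 34.1, 33 and 35.3 in Low. High lay below both other populations, and Medium overlapped with Low in 1 library. High over Low gave a log2 fold change of -0.50 ± 0.10 (adjusted p = 0.00666). Apaf1, the core of the apoptosome, had 30.8, 28.3 and 28.3 in High, 48.3, 33.8 and 36.3 in Medium and 50.7, 35.2 and 37.5 in Low. Replicate 1 was the highest of each population, and the difference missed the threshold (log2 fold change -0.47, 95% interval -0.82 to -0.11, adjusted p = 0.0545). Apaf1 passed with a replicate block (adjusted p = 0.00487) and with the length trend removed (adjusted p = 0.00105), and also without Medium replicate 1 (0.0348) or Low replicate 2 (0.0384). Its longest transcript has 6577 nt.

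Zmat3, an RNA-binding zinc finger protein that shapes splicing of p53 pathway RNAs, had 91.6, 72.4 and 74.1 normalised reads in High, 111, 90.8 and 96.5 in Medium and 108, 100.1 and 98.1 in Low. High lay below Low but overlapped with Medium. The log2 fold change of High over Low was -0.37 ± 0.11 (adjusted p = 0.0343). The call was lost without High replicate 2 (0.126) or 3 (0.116), Medium replicate 3 (0.0541), or Low replicate 2 (0.0576) or 3 (0.0761), and in a fit of High and Low alone (0.0523).

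Ei24, an endoplasmic reticulum protein of the autophagy pathway first described as induced by p53, went the other way. It had 260, 255 and 264 normalised reads in High, 232, 212 and 204 in Medium and 161, 180 and 171 in Low. The populations were separate, and High exceeded Low 1.52-fold (log2 fold change 0.60 ± 0.08, adjusted p = 0.000489). An antisense transcript shares 6.66% of its exon bases. Aen, a nuclease that promotes apoptosis, had means of 109 ± 2.88 in High, 113 ± 1.37 in Medium and 125 ± 2.03 in Low (SD, n = 3 each). All High libraries lay below all Low ones, yet the log2 fold change of -0.19 missed the threshold (adjusted p = 0.053), and it passed with a replicate block (0.0322), with the length trend removed (0.0289) and without Low replicate 1 (0.0399). Cyfip2, a subunit of the actin-regulating WAVE complex, had 16, 14.2 and 15.2 in High, 21.8, 18.9 and 19.1 in Medium and 25.4, 14.2 and 20.4 in Low. The lowest Low library was level with the lowest High one (log2 fold change -0.35, 95% interval -0.74 to 0.04, adjusted p = 0.168). With the length trend removed Cyfip2 passed as lower (adjusted p = 0.00604), as it did without Low replicate 2 (0.0111).

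Of the 5 genes of DNA repair and nucleotide supply, 2 were lower in High, 0 were higher and 3 did not pass. Polk encodes a DNA polymerase that copies past damaged bases. It had 10.3, 8 and 7.8 normalised reads in High, 12.9, 12 and 12.1 in Medium and 18.8, 10.8 and 14.6 in Low (log2 fold change of High over Low -0.67 ± 0.18, adjusted p = 0.0196). High lay below both others, and Low was widely spread. The call was lost without High replicate 2 (0.0697) or 3 (0.0708) or Low replicate 3 (0.0654), and with High and Low fitted alone (0.0518). Ercc5, the endonuclease XPG of nucleotide excision repair, had 18.8, 21.5 and 21.2 in High, 22.6, 27.4 and 26.8 in Medium and 32.9, 24.5 and 30.9 in Low. High was again the lowest without overlap (log2 fold change -0.49 ± 0.13, adjusted p = 0.0182), and the call was lost without High replicate 1 (0.0689) or Low replicate 3 (0.0734).

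Xpc and Ddb2 recognise DNA lesions at the start of nucleotide excision repair. Xpc averaged 26.4 ± 1.07 normalised reads in High, 27.5 ± 1.67 in Medium and 25.3 ± 2.57 in Low (SD, n = 3 each), and its log2 fold change of High over Low was 0.06 (95% interval -0.15 to 0.28, adjusted p = 0.656). Ddb2 averaged 8.27 ± 1.67, 6.64 ± 1.4 and 8.57 ± 0.439 in High, Medium and Low, with a log2 fold change of -0.06 (95% interval -0.43 to 0.32, adjusted p = 0.835). Both sets of libraries overlapped between High and Low. In the annotation 23.8% of the exon bases of Ddb2 are shared with Acp2 on the other strand, and the use of strand in counting is not given in the sources used here. Rrm2b, the p53-inducible subunit of ribonucleotide reductase, averaged 5.38 ± 0.552, 6.91 ± 0.448 and 6.85 ± 1.13 in High, Medium and Low. Its log2 fold change of High over Low was -0.29 (95% interval -0.59 to 0.01, adjusted p = 0.139). Rrm2b passed as lower with the length trend removed (adjusted p = 0.0483) and without Low replicate 2 (adjusted p = 0.0463).

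The stress and metabolism members split. The sestrins restrain the growth kinase mTORC1, and the 2 listed ones moved in opposite directions. Sesn1 had 32.5, 34.9 and 31.9 normalised reads in High, 30, 24.8 and 25.5 in Medium and 20.7, 18.2 and 20.4 in Low. Its populations were separate, and High exceeded Low 1.68-fold (log2 fold change 0.72 ± 0.10, adjusted p = 0.000762). Sesn3, also known as a target of FOXO factors, had 12.1, 11.5 and 12.5 in High, 17, 15.3 and 17.6 in Medium and 24.1, 17.5 and 18.1 in Low. High lay below the others, which overlapped (log2 fold change -0.67 ± 0.13, adjusted p = 0.00425).

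Dcxr, a reductase of sugars and dicarbonyls, was a weakly expressed member with 2.84, 3.91 and 4.67 normalised reads in High, 4, 5.93 and 4.53 in Medium and 6.05, 12 and 9.78 in Low. All High libraries lay below all Low ones (log2 fold change -1.06 ± 0.24, adjusted p = 0.0095). Gdf15, a secreted stress hormone, was the lowest, with 8 to 26 reads per library. It averaged 0.864 ± 0.371 normalised reads in High, 1.18 ± 0.342 in Medium and 1.68 ± 0.401 in Low (SD, n = 3 each), with overlap between High and Low. The log2 fold change of -0.51 missed the threshold (adjusted p = 0.0746) and is understated at such levels by the pseudocount; with a replicate block the adjusted p was 0.0191, without High replicate 3 0.0459 and without Low replicate 1 0.0306.

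Rps27l, a ribosomal protein variant that binds Mdm2, had 176, 215 and 217 normalised reads in High, 177, 229 and 184 in Medium and 189, 356 and 276 in Low. The Low libraries ranged widely, and the lowest of them fell among the High ones (log2 fold change of High over Low -0.39, 95% interval -0.85 to 0.07, adjusted p = 0.184). Its transcript is short (575 nt), and it resembles Rps27, so reads may have been split between them. With a replicate block it passed (adjusted p = 0.0302), as it did with the length trend removed (0.0142) and without Low replicate 1 (0.00615). Tigar, which limits glycolysis, had under its identifier 83.9 ± 4.66 in High, 75.5 ± 3.05 in Medium and 68 ± 2.14 in Low (SD, n = 3 each). It was higher in High, as were Sesn1 and Ei24 among the members (log2 fold change 0.30 ± 0.07, adjusted p = 0.0159).

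**Figure D3:**
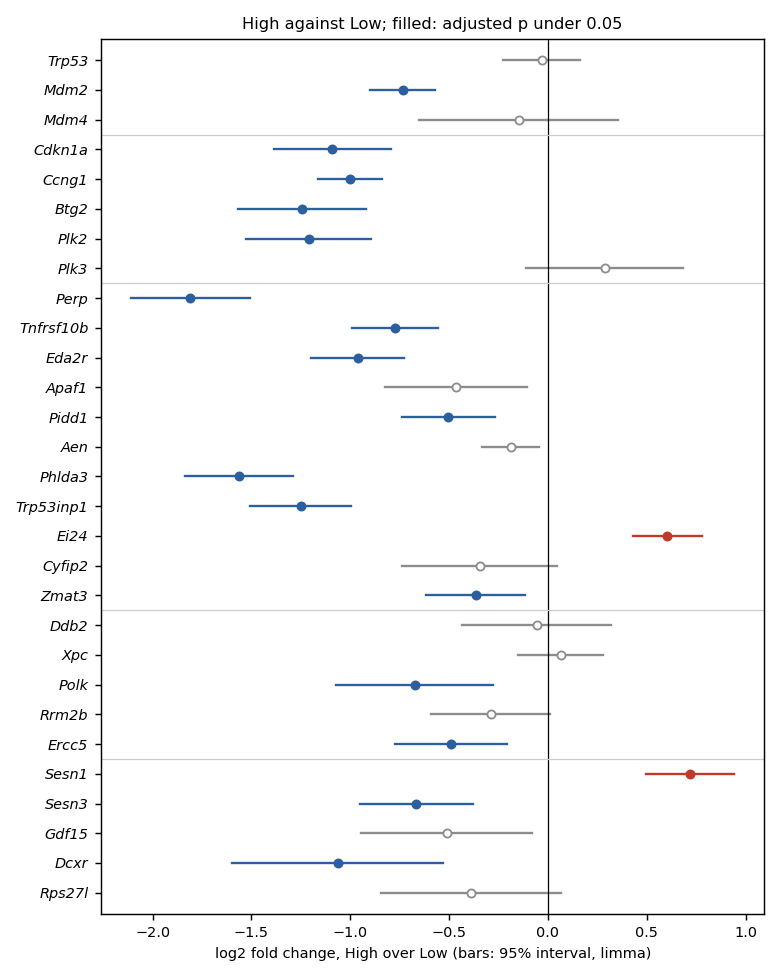
Log2 fold change of High over Low for each member, with 95% intervals from limma; filled points passed at an adjusted p under 0.05, in blue where lower in High and in red where higher, and open grey points did not pass. The intervals of 16 members lie wholly below 0 with a call and those of Ei24 and Sesn1 above it.

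Medium cells were compared with each end to see where along the sort the members moved. The mean of Medium lay between those of High and Low for 24 of the 29 members (82.8%), against 55.2% of all genes. In 9 members (31%) every High library lay below every Medium library and every Medium library below every Low one: Mdm2, Ccng1, Btg2, Plk2, Perp, Tnfrsf10b, Eda2r, Phlda3 and Trp53inp1. The same strict order held for 5.22% of all genes. The High against Medium and the Medium against Low comparisons share the Medium libraries, so their values are set side by side without being related to each other.

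For Medium against Low, 10 of the 29 members (34.5%) were lower in Medium and 2 (Sesn1 and Ei24) were higher, against 5.87% and 6.14% of all genes. The 10 were Mdm2, Cdkn1a, Ccng1, Btg2, Plk2, Perp, Tnfrsf10b, Eda2r, Phlda3 and Trp53inp1, that is 4 of 5 cell cycle and growth genes, 5 of 11 death and survival genes, and Mdm2. Their log2 fold changes of Medium over Low ran from -1.16 ± 0.13 for Perp (adjusted p = 0.00108) to -0.42 ± 0.10 for Tnfrsf10b (adjusted p = 0.0243). Phlda3 had -0.97 ± 0.12 (adjusted p = 0.00177) and Cdkn1a -0.79 ± 0.13 (adjusted p = 0.00645). None of the 5 DNA repair genes passed (Ercc5 had -0.19, adjusted p = 0.331). The median over the 29 was -0.23, against -0.014 over all genes. The higher calls of Sesn1 and Ei24 were not stable: the count of 2 was 0 without Low replicate 3, Medium replicate 1 or Medium replicate 3, and 1 without Low replicate 2 or Medium replicate 2.

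For High against Medium, 1 member (3.45%) was lower in High, against 0.326% of all genes, and 0 were higher, against 0.0815% of all genes. The called member was Ccng1 (log2 fold change of High over Medium -0.48 ± 0.07, adjusted p = 0.0284). Its call was lost in every fit that left out a High or a Medium library or Low replicate 3, where the count was 0. Trp53inp1, Phlda3, Perp and Eda2r had log2 fold changes of -0.62, -0.60, -0.65 and -0.50 and adjusted p of 0.0565, 0.0734, 0.0772 and 0.0832. At an unadjusted p under 0.05, 17 members were lower in High and 2 higher in limma and in edgeR, and 16 and 2 in DESeq2; after adjustment edgeR called 1 and DESeq2 7 of the members, all lower. Over all 13499 genes, 10.9% had an unadjusted p under 0.05 in limma, 864 lower in High and 604 higher. In edgeR these were 895 and 589, and in DESeq2 744 and 498. After adjustment edgeR called 50 genes lower and 13 higher, and DESeq2 165 lower and 95 higher. The median over the 29 members was -0.31, against 0.0052 over all genes.

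**Figure D4:**
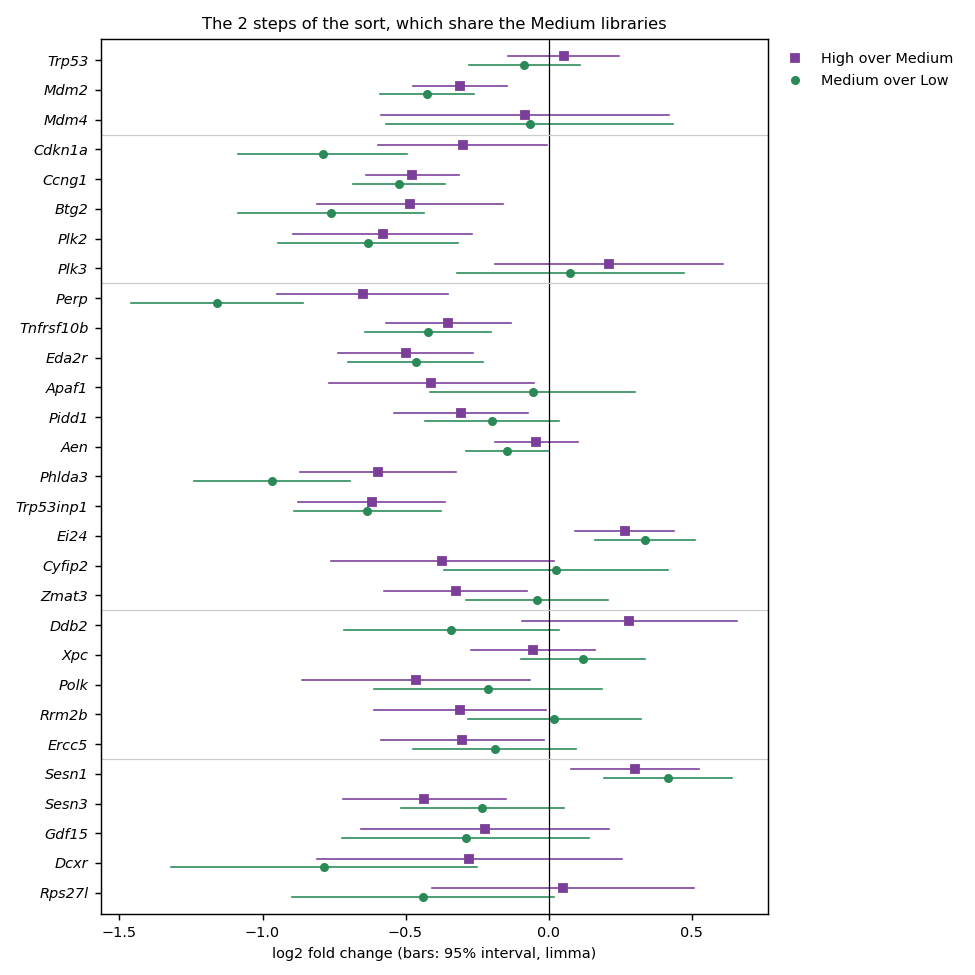
Log2 fold changes of High over Medium (purple squares) and of Medium over Low (green circles) for each member, with 95% intervals from limma. Perp, Phlda3 and Cdkn1a show -0.65, -0.60 and -0.30 for High over Medium and -1.16, -0.97 and -0.79 for Medium over Low, and both values of Trp53 lie near 0.

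The departure of Medium from the midpoint of High and Low, on the log2 scale, was tested directly. It was called for 0 of the 29 members and 0% of all genes in limma. At an unadjusted p under 0.05 it was seen for 0 members in limma, edgeR and DESeq2, and for 766, 723 and 619 genes; after adjustment edgeR called 0 genes and DESeq2 17. The members' departures ran from -0.31 for Ddb2 to 0.20 for Cyfip2. An uneven step was thus not detected for any member by these tests.

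Other p53 targets, which are not members, were called in both directions. Of 29 measured of 31 listed, 13 were lower in High than in Low, 3 higher and 13 did not pass, with a median log2 fold change of -0.35. Over all genes 14.6% were lower and 13.8% higher, with a median of -0.00025. Ddit4, an inhibitor of mTORC1, had 11.4 ± 2.68 normalised reads in High, 21.8 ± 1.38 in Medium and 49.6 ± 6.25 in Low (SD, n = 3 each; log2 fold change of High over Low -2.04, adjusted p from limma 2.46e-05). Lif, the cytokine that sustains ES cells, had 4.94 ± 1.22, 7.13 ± 0.307 and 12.7 ± 2.2 in High, Medium and Low (log2 fold change -1.21). The epoxide hydrolase gene Ephx1 and the phosphatase gene Ptp4a3 had log2 fold changes of -1.05 and -0.81. The death genes Bbc3 (Puma) and Pmaip1 (Noxa), picked out after their values were seen, fell by 0.78 and 0.73 on the log2 scale, whereas Bax did not pass (-0.23, adjusted p = 0.405). Sesn2, Epha2 and Steap3, named as the 3 higher calls after their values were seen, were higher in High, with log2 fold changes of 0.36, 0.45 and 0.45.

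Of 26 measured genes that act on p53 or its regulators, 1 was lower in High than in Low, 1 was higher and 24 did not pass, against 14.6% of all genes lower and 13.8% higher. Not passing does not show that a gene was unchanged. Atm, named after its values were seen, had a log2 fold change of 1.13, with 16.7 to 83.4 normalised reads in Low libraries. The longest transcripts of the 26 had a median of 4375 nt, against 3288 nt for all genes. Their calls with the length trend removed were not examined. Sirt1, a deacetylase of p53, averaged 173 ± 7.61 normalised reads in High, 155 ± 8.69 in Medium and 134 ± 3.24 in Low (SD, n = 3 each; log2 fold change of High over Low 0.36, adjusted p from limma 0.00569). Cdkn2a, the locus that encodes the Mdm2 inhibitor Arf as well as p16, averaged 3.69 ± 0.424, 4.92 ± 0.178 and 7.04 ± 1.39 in High, Medium and Low (log2 fold change -0.76). Counts per gene do not separate these Cdkn2a transcripts.

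Markers of other cell types were examined in the same libraries. For the counts below, the shares over all genes were 14.6% lower in High than in Low and 13.8% higher. Of 9 measured trophoblast markers, 8 were lower in High than in Low and 0 higher, and their summed level was 137 to 145 normalised reads in High libraries, 227 to 247 in Medium and 482 to 590 in Low. Of 14 such markers listed, 5 (Elf5, Hand1, Tpbpa, Plac1 and Cdx2) were not analysed here. Of 7 measured primitive endoderm markers, 4 were higher and 1 (Dab2, log2 fold change -1.13) lower. The 7 summed to 611 to 648 in High, 551 to 563 in Medium and 354 to 434 in Low. Most of these sums came from Sparc, with means of 428, 343 and 221 in High, Medium and Low. Of 12 such markers listed, 5 (Gata4, Gata6, Sox17, Pdgfra and Foxa2) were not analysed here. Of 7 measured fibroblast markers, 1 (Thy1) was higher in High. The fibroblast markers summed to 32.4 to 47.4 in High, 42.1 to 66 in Medium and 26.6 to 45.7 in Low. Of 9 measured immediate early genes, which can respond to handling, 4 (Ier3, Jun, Zfp36 and Atf3) were lower in High and 0 higher. Atf3 was near the floor, with 0.132 to 1.67 normalised reads per library. All 9 summed to 272 to 327 in High, 243 to 311 in Medium and 292 to 350 in Low. The largest part of these sums came from Ier2, with means of 184, 159 and 154 in High, Medium and Low. Ier2 did not pass (log2 fold change of High over Low 0.25). The part of these cells and responses in the members' differences was not tested.

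Libraries of 1 population also differed with transcript length. The median deviation of genes with transcripts of at least 4729.5 nt, minus that of genes with at most 2100 nt, was 0.25, -0.058 and -0.075 on the log2 scale in High, 0.30, -0.051 and 0.25 in Medium and 0.28, -0.59 and -0.27 in Low, in the order of replicates 1 to 3. The longest transcripts of the members had a median length of 3512 nt, and those of all genes one of 3288 nt. With this trend removed from each library, 21 of the 29 members were lower in High than in Low and 2 higher. The 16 lower and 2 higher calls of the fit without the correction stayed calls in the same direction. Over all 13499 genes, 2440 were lower and 2669 higher with the trend removed, against 1966 and 1866 without the correction.

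**Figure D5:**
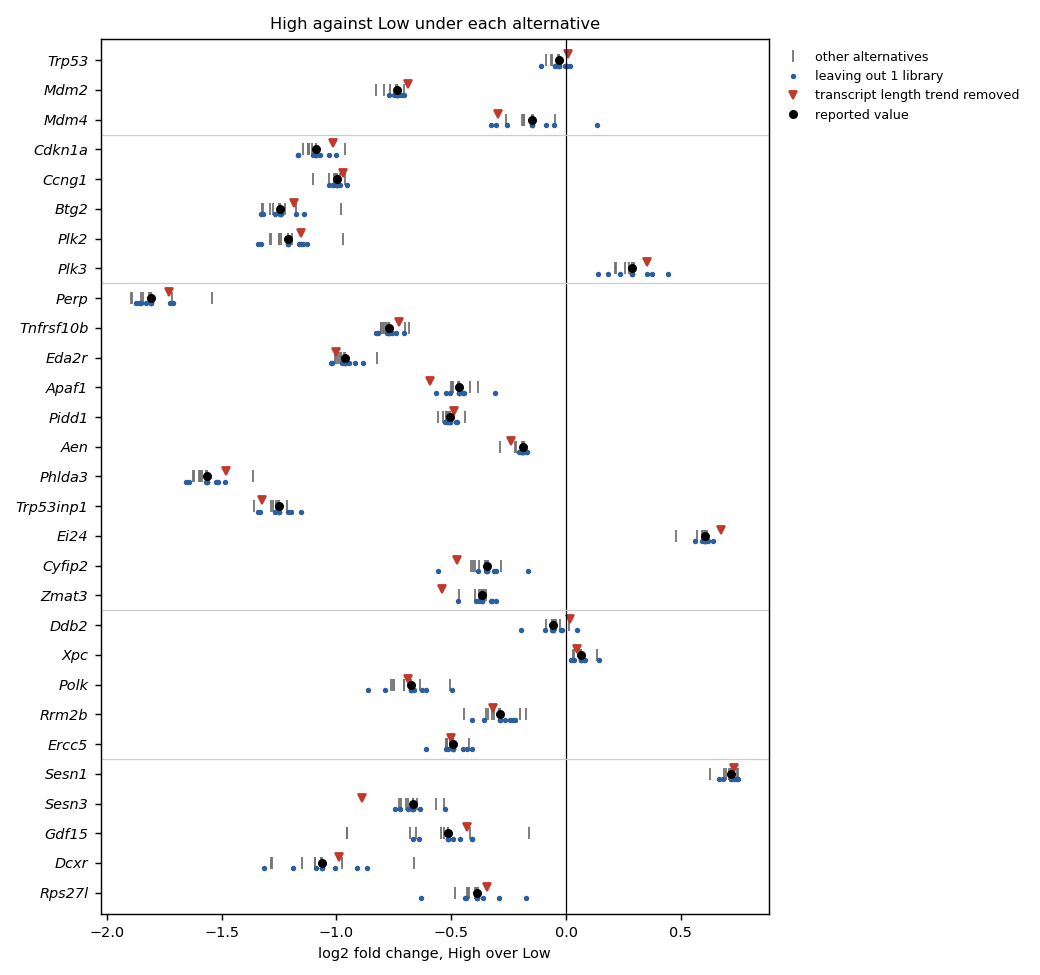
Log2 fold change of High over Low for each member as reported (black), with 1 library left out (blue points), with the transcript length trend removed (red triangles) and under the other alternatives (grey ticks). Perp stays between -1.89 and -1.54 throughout, whereas Mdm4 spreads from -0.33 to 0.13.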

How the data were processed

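RNA from 9 libraries (3 each of High, Medium and Low) was analysed. The deposited signal values are normalised read counts per gene; per the submitters' processing notes, limma, RSEM, Picard and cutadapt were used, in roles not stated, and the authors' genome build is not given in the sources used here. Every value was a whole multiple of 1 read within 0.001, so whole reads were recovered, 11114936 to 16755566 per library. A pseudocount of 1 CPM on each column's own total was added to the normalised values before log2, so fold changes of low genes are understated. The values were not rescaled to equal column totals, which ran from 953055 to 1026950. Rescaling each library to the same total served as an alternative, with 3694 genes called for High against Low. Genes with at least 1 CPM in 3 libraries were kept (13499, all of them) and tested with limma 3.58.1 (variance trend, all 9 libraries, population as the only term, Benjamini-Hochberg adjustment over all genes, calls below 0.05, two-sided). edgeR 4.0.16 and DESeq2 1.42.0 on the recovered reads served as alternatives. Coordinates and transcript lengths come from GENCODE M21. The script was tested on simulated data.

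Same-numbered libraries of High and Low deviated together, with correlations of 0.53, 0.26 and 0.18. However, High 3 also correlated at 0.31 with Low 2 and at 0.35 with Medium 2. Same-numbered libraries of High and Medium (0.35, 0.17 and -0.04) and of Medium and Low (0.24, 0.43 and -0.11) did not meet the rule of 0.1 in every pair. What the numbers mark is not given. The reported fit therefore did not pair libraries, and the replicate block served as an alternative. Members and lists were chosen with earlier results of these data known. Genes of other lists are named by a rule of at most 4 per list, those that passed between High and Low with the largest absolute changes; exceptions are stated.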

Additional observations from a re-analysis of the deposited data

How the results depend on the processing

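Of 695 values of single members under 24 alternatives for High against Low, 636 kept their direction and side of the threshold, 12 lost the call, 38 gained it and 9 reversed; 15 of the 18 called members kept their call throughout, the exceptions being Zmat3, Polk and Ercc5. The reversals concern genes that were not called: Trp53 (0.0069 with the length trend removed, with or without a replicate block, 0.0038 without High replicate 1 and 0.016 without Low replicate 2), Mdm4 (0.13 without Low replicate 1) and Ddb2 (0.013 under quantile normalisation, 0.015 with the length trend removed, with or without a block, and 0.047 without High replicate 2). With 1 library left out these 3 ran from -0.11 to 0.016, -0.33 to 0.13 and -0.20 to 0.047.

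Genes called numbered 3832 for High against Low, 55 for High against Medium, 1621 for Medium against Low and 0 for the departure of Medium. With sample weights, fitted gene by gene, they were 7850, 801, 7044 and 1153. With the length trend removed and a replicate block they were 6047, 489, 3839 and 2. High against Medium gave 203 with a replicate block, 292 with the length trend removed, 172 with only the groups compared, 84 with no variance trend and 260 in DESeq2. Medium against Low gave 3656 with a replicate block, 2699 with the length trend removed and 669 with only the groups compared. The departure gave 1 with a block, 2 with the length trend removed and 17 in DESeq2. Leaving out 1 library gave 2266 to 5757, 11 to 208, 497 to 5060 and 0 to 70.

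Between High and Low the members lower, 16 as reported, were 14 with only the groups compared and 13 to 19 with 1 library left out. They were 20 with a replicate block, 22 with sample weights and 23 with the length trend removed and a block. Over all 13499 genes, 1966 were lower as reported, 1581 with only the groups compared and 1160 to 2699 with 1 library left out. With a replicate block 2511 were lower, with sample weights 3891 and with the length trend removed and a block 2839. The members higher, 2 as reported, were 3 with a replicate block and 2 in every fit with 1 library left out. Over all genes, 1866 were higher as reported, 2728 with a replicate block and 1106 to 3058 with 1 library left out. Members lower in High than in Medium, 1 as reported, were 14 with sample weights, 4 with only the groups compared, 5 with a replicate block, 7 with the length trend removed, 9 with both, 7 in DESeq2 and 0 to 6 with 1 library left out; members higher, 0 as reported, were 2 with sample weights and 1 with the length trend removed and a block. Over all genes, those lower in High than in Medium were 44 as reported, 475 with sample weights and 110 with only the groups compared. They were 140 with a replicate block, 183 with the length trend removed, 282 with both and 165 in DESeq2. Genes higher there were 11 as reported, 326 with sample weights and 207 with the length trend removed and a block. Members lower in Medium than in Low, 10 as reported, were 16 with sample weights and 6 to 12 with 1 library left out. Over all genes these were 792, 3585 and 212 to 2330, in the same order. Members higher there, 2 as reported, were 1 under quantile normalisation, 0 with only the groups compared and 0 to 2 with 1 library left out. Over all genes these were 829, 744, 314 and 285 to 2730, in the same order. Depth limits Gdf15, with 8 to 26 reads per library. The cause of these shifts was not tested.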
